A study of Thermothelomyces thermophilus ATCC 42464 with 4 samples.

Results

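The sites described here are methylated cytosines in the CHG context (H is A, C or T) without a listed CHG cytosine facing them on the other DNA strand. A facing cytosine in the CG context does not count as a partner, and it was often found methylated. They were selected on the 2 lists of methylated cytosines made from wild-type (WT) Myceliophthora thermophila, a filamentous fungus that grows at high temperature. A member had to stand in both WT lists as CHG, and neither WT list could hold a CHG cytosine 2 bases downstream on the opposite strand. This left 67841 members of the 161524 CHG sites found in both WT lists, or 42.0% (exact 95% interval 41.8 to 42.2). The other 93683 sites had a listed partner and are called partnered. All lists together held 250462 CHG sites and 2693648 cytosines of any context.

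Whole-genome bisulfite sequencing was done on genomic DNA from mycelium of strain ΔlaeA and of the WT strain, both grown for 24 h on glucose, with 2 libraries per strain. In ΔlaeA the coding region of laeA was replaced by a marker cassette, although the genotype label of these samples speaks of a knockdown. Nothing states that the libraries of a strain came from separate cultures, so the spread between them may be technical. CHG sites numbered 189241 and 180279 in the ΔlaeA lists, against 192078 and 194165 in the WT lists, and median depth at all listed cytosines was 56 and 47 reads in ΔlaeA, against 55 and 59 in WT. The lists hold called cytosines only, with a level (methylated reads over all reads) of at least 5% and at least 5 reads. An unlisted cytosine may thus be unmethylated, weakly methylated or thinly covered, and these cases cannot be told apart.

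LaeA is known as a putative methyltransferase and a regulator of secondary metabolism in filamentous fungi. In fungi such as Neurospora crassa, the DNA methyltransferase DIM-2 methylates cytosines in any sequence context, mostly in AT-rich repeats mutated by repeat-induced point mutation, and it is guided there by trimethylation of histone H3 at lysine 9. In plants, by contrast, CHG methylation is kept up on both strands by a dedicated chromomethylase, which is why the facing cytosine is of interest. The triplets CAG and CTG face each other on the opposite strands of the DNA. The triplet CCG faces CGG, so the cytosine opposite it lies in the CG context and can never be counted as a CHG partner.

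This last property described most of the members. A CG cytosine of any list, ΔlaeA included, could stand at the inner base of the triplet or on the facing strand. Such a CG showed the triplet to be CCG in 45241 members, or 66.7% (exact 95% interval 66.3 to 67.0). The inner and the facing CG were both listed for 29833 of them, the inner one alone for 12366 and the facing one alone for 3042. Of the members with a listed inner CG, 70.7% also had the facing CG listed, so these sites lacked a partner by context while methylation was often present on the facing strand. A partnered site cannot have such a CG neighbour, and none of the 93683 did. No cytosine was given different contexts in different lists. When the CG had to stand in both WT lists, the share of CCG members was 52.1%.

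The remaining members fell into another pair of groups. A partner was absent from both WT lists and present in at least 1 ΔlaeA list for 5546 members, or 8.18%. The last 17054 members, or 25.1%, had no listed CG in the triplet and no partner in any list. These are called unresolved, since without the genome sequence a CCG with unlisted CG cytosines and a CAG or CTG with an unlisted partner cannot be told apart. Once the CCG members were set aside, 22600 of 116283 CHG sites lacked a WT partner, or 19.4%.

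Members lay on both strands and on all 7 chromosomes. The plus strand held 50.3% of them, against 49.96% of the partnered sites. Their share of the CHG sites was between 40.7% on chromosome 2 and 43.8% on chromosome 7, and the share of CCG among them between 62.7% on chromosome 7 and 71.0% on chromosome 1. Members were embedded in methylated DNA: their nearest fellow member was a median of 38 bp away, and 78.9% had another one within 100 bp. The number of WT-listed cytosines of any context within 100 bp had a median of 35 for members and 37 for partnered sites. Only 78 members stood more than 1000 bp from any other. They were found in 10168 of the 10357 1-kb windows that held a listed CHG site of both WT lists, with a median of 6 and at most 27 in a window.

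The WT level of a site went along with whether its partner was listed. These levels come from the lists that chose the members and are a description only. Over all members the pooled WT level was 14.8% in either library, against 17.9% and 18.0% at partnered sites. Of the CHG sites with a pooled WT level of 5 to 10%, 52.1% lacked a partner, and of those above 40%, 20.6% did. Among sites that were not shown to be CCG the share was 30.4% in the lowest class and 2.40% in the highest. The share of CCG sites among all CHG sites differed less, with 31.2% in the lowest class and 18.7% in the highest. At high levels most members were CCG sites, namely 1148 of the 1268 members above 40%.

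**Figure D1:**
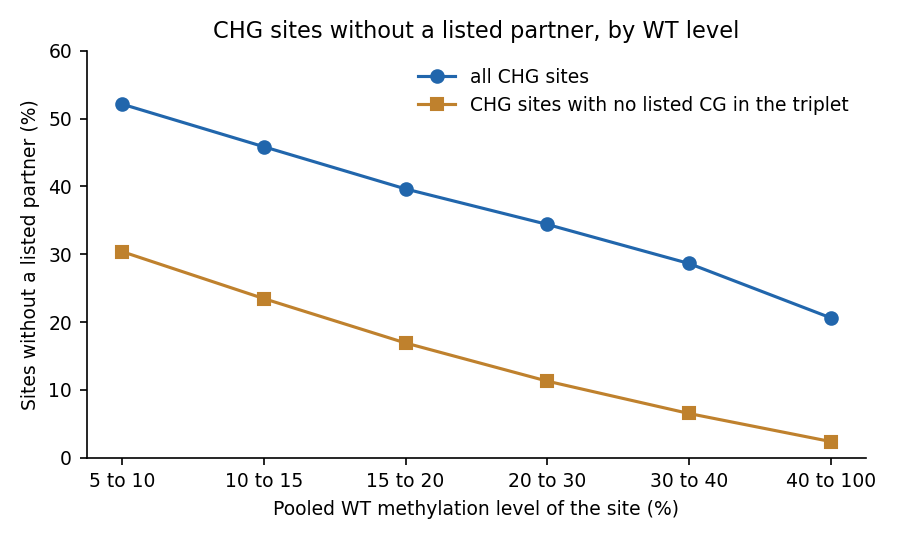
Share of CHG sites without a listed partner (y axis, %) in classes of pooled WT level (x axis, %), for all CHG sites of both WT lists (circles) and for those with no listed CG in the triplet (squares). The share was 52.1% in the lowest and 20.6% in the highest class for all sites, and 30.4% and 2.40% for the sites not shown to be CCG.

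Near the limits of the lists, 722 members had a level under 6% in both WT libraries and 349 had exactly 2 methylated reads in a WT library. Just outside the rule stood 38270 CHG sites without a partner that were in exactly 1 WT list, with a median level of 7.35% at a median depth of 56 reads. A further 17409 sites, or 18.6% of the partnered ones, were kept out by a partner seen in exactly 1 WT list. The median level of those partners was 7.79% in WT replicate 1 and 7.84% in WT replicate 2.

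The cytosines listed around a site gave a partial view of its sequence, because a listed cytosine on the facing strand marks a G at that base. Facing cytosines directly upstream of the site were rarely listed: at 1.13% of CCG members, 1.73% of the other members and 3.12% of partnered sites, while the medians over bases at least 5 away were 14.2%, 12.8% and 15.05%. Listed CHG cytosines thus seldom had a recorded G before them. Beyond the triplet the members that were not CCG stood apart. At the first base after the triplet, a same-strand cytosine was listed for 21.8% of them, against 7.37% of CCG members and 5.21% of partnered sites. Such a cytosine puts a G directly before the missing partner, read on the partner's own strand. At the next base the shares were 27.8%, 10.7% and 14.6%. On the facing strand the order was turned: the first base after the triplet was listed for 1.80% of the members that were not CCG, 14.6% of CCG members and 19.8% of partnered sites. These shares count listed cytosines, so a cytosine below the listing limits is missed, and sites within reach of each other share neighbours.

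**Figure D2:**
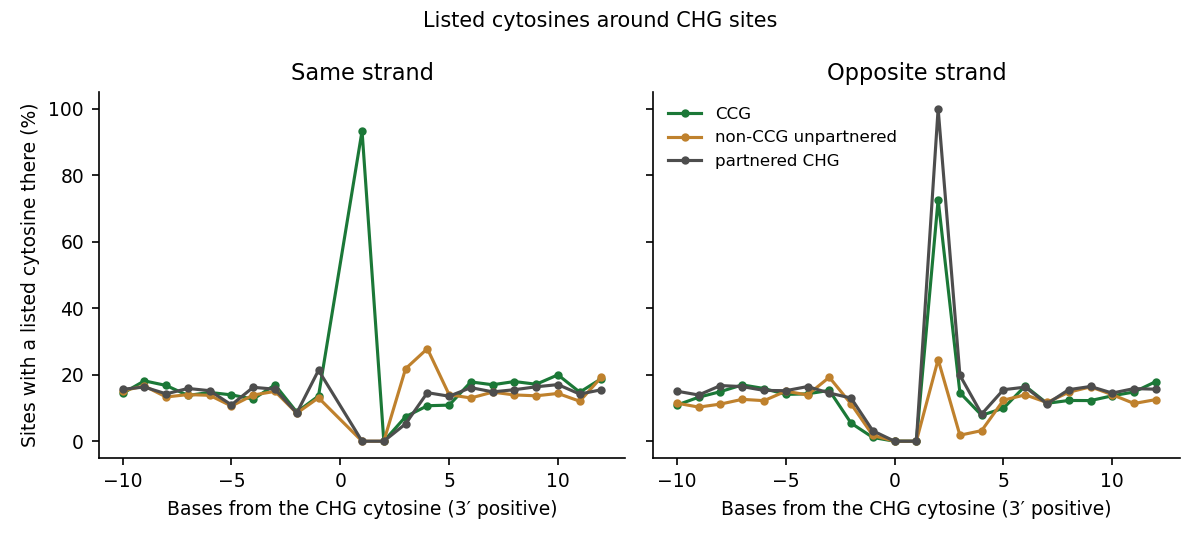
Share of sites with a listed cytosine (y axis, %) at each base from the CHG cytosine (x axis, bases, 3′ positive), on the same strand (left) and on the opposite strand (right), for CCG members, other members and partnered sites. The other members stand above both further classes at bases 3 and 4 on the same strand, with 21.8% and 27.8%, and below them at base 3 on the opposite strand, with 1.80%.

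Levels were compared between strains over the sites listed in all 4 libraries, which were 50634 members (74.6%) and 78886 partnered sites (84.2%). Sites that fell under the listing limits in a library are left out of these levels. The pooled level of the members was 16.1% and 16.0% in the ΔlaeA libraries, against 16.5% and 16.6% in the WT libraries. Both ΔlaeA libraries lay below both WT libraries. The mean was 16.1% ± 0.0707 in ΔlaeA and 16.6% ± 0.0315 in WT (SD, n = 2 each), a difference of -0.493 percentage points with an exact two-sided permutation p = 0.333, the smallest that 2 libraries against 2 can give. No comparison of library levels could therefore pass 0.05. The median over sites was 14.5% and 14.3% in ΔlaeA, against 14.9% in both WT libraries, and the upper quartile was 20.8% and 20.7% in ΔlaeA, against 21.4% and 21.5% in WT. Members with at least 50% methylation numbered 485 and 469 in ΔlaeA, against 509 and 545 in WT.

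The groups of members kept their order in every library. CCG members had 16.9% and 16.8% in ΔlaeA, against 17.4% in both WT libraries, a difference of -0.577 percentage points. Members whose partner was listed in ΔlaeA only had 15.3% and 15.2%, against 15.4% and 15.5% in WT (-0.204 points). Unresolved members were lowest, at 14.0% in both ΔlaeA libraries, against 14.3% and 14.4% in WT (-0.344 points). In each of these groups the ΔlaeA libraries lay below the WT libraries, and each exact p was 0.333. The groups were drawn with the ΔlaeA lists as well as the WT lists, so how the strain difference varies between them is a description only.

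**Figure D3:**
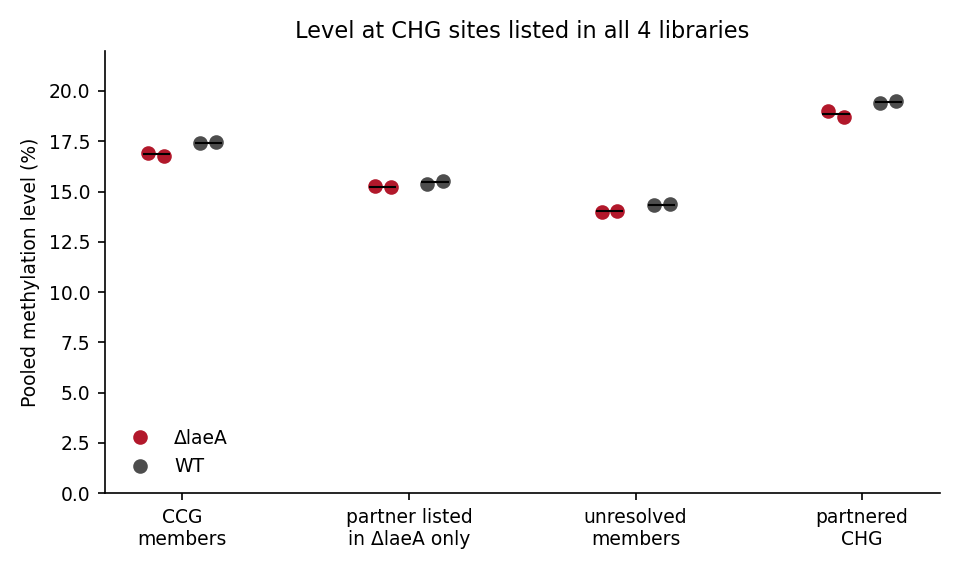
Pooled methylation level (y axis, %) in the ΔlaeA libraries (red, left of each pair) and the WT libraries (grey, right), at CHG sites listed in all 4 libraries. Each point is 1 library and each bar the mean of a strain. The groups of members were drawn with the lists of both strains. CCG members, members with a partner in ΔlaeA only, unresolved members and partnered sites had means of 16.9%, 15.2%, 14.0% and 18.9% in ΔlaeA, against 17.4%, 15.5%, 14.4% and 19.4% in WT.

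Members stood below partnered sites in every library. Their level minus that of the partnered sites was -2.89 and -2.69 percentage points in ΔlaeA, against -2.85 and -2.90 points in WT. These gaps overlapped between the strains. Without the CCG members, which were marked by a CG in any list, ΔlaeA included, they did not overlap. The gap in ΔlaeA minus the gap in WT was then 0.270 points (exact two-sided permutation p = 0.333). Over all members this difference was 0.0834 points (exact two-sided permutation p = 0.667), and without ΔlaeA replicate 2 it was -0.0183 points, so its sign rested on that library.

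The CCG triplet allowed its cytosines to be set side by side. All 3 cytosines were listed in all 4 libraries for 8396 triplets. The outer cytosine, which is the member, had 21.3% and 20.9% in ΔlaeA, against 21.9% and 21.98% in WT. The inner CG cytosine had 20.5% and 19.97% in ΔlaeA, against 20.8% and 20.9% in WT, and the facing CG cytosine 18.6% and 18.2% in ΔlaeA, against 18.9% and 19.2% in WT. The member thus had the highest pooled level of the set in each library. It exceeded the inner CG in 51.6% and 51.3% of triplets in ΔlaeA and in 52.3% in both WT libraries, and the facing CG in 59.4% and 59.3% of triplets in ΔlaeA and in 59.6% and 59.5% in WT. Across the triplets the outer level correlated with the inner one at r = 0.50 in ΔlaeA, against r = 0.50 and r = 0.51 in WT, and with the facing one at r = 0.40 and r = 0.38 in ΔlaeA, against r = 0.39 and r = 0.40 in WT. For comparison, the cytosines of 28445 CHG pairs listed on both strands in all 4 libraries correlated at r = 0.47 and r = 0.44 in ΔlaeA, against r = 0.45 and r = 0.46 in WT. The cytosines of a triplet share library, depth and sequence surroundings, and often the same reads, so these values are descriptions across sites. In 2158 cases a CCGG held a member on either strand, so that both outer cytosines were members.

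The most methylated members were named as those with the highest mean WT level among the 50247 with 20 to 200 reads in each library, so their levels are no test of the strains. All 5 were CCG sites. The first lies on the plus strand of chromosome 2 at 4217806 (ASM22609v1), 732 bp from MYCTH_92508, and had 34 of 39 and 20 of 30 reads methylated in ΔlaeA, against 23 of 27 and 27 of 30 in WT. Its inner CG had 84.2% and 76.7% in ΔlaeA, against 88.9% and 86.2% in WT, and its facing CG 86.4% and 80.0% in ΔlaeA, against 91.4% and 88.8% in WT. All cytosines of this triplet were thus highly methylated on both strands. A minus-strand site of chromosome 4 at 2136933 had 30 of 39 and 18 of 23 reads methylated in ΔlaeA, against 32 of 40 and 37 of 41 in WT. Its inner CG had 57.1% and 50% in ΔlaeA, against 66.7% and 77.5% in WT, and its facing CG 69.4% and 83.3% in ΔlaeA, against 73.9% and 64.3% in WT. The inner CG lay below the member in every library, and the facing CG in all but ΔlaeA replicate 2. A plus-strand site at 2136386 of the same chromosome had 29 of 39 and 21 of 31 in ΔlaeA, against 27 of 35 and 27 of 32 in WT, and a facing CG of 74.6% and 75.9% in ΔlaeA, against 69.0% and 82.5% in WT. They lie 1676 and 1129 bp from MYCTH_2306594.

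The facing CG was lower than the member in every library at the other named sites. The named sites were chosen for the member's own high WT level, so a lower neighbour goes with the choice. Their inner CG was lower as well, except at 2100801 in ΔlaeA replicate 2 (79.4%, against 70.6% at the member). At 1331176 on the plus strand of chromosome 4, 1097 bp from MYCTH_52735, 29 of 41 and 17 of 26 reads were methylated in ΔlaeA, against 17 of 23 and 28 of 32 in WT. Its facing CG had 18.4% and 35.3% in ΔlaeA, against 57.9% and 44.4% in WT. At 2100801 on the minus strand of chromosome 1, 2032 bp from MYCTH_2295071, 53 of 65 and 24 of 34 reads were methylated in ΔlaeA, against 43 of 54 and 30 of 37 in WT. Its facing CG had 55.2% and 43.2% in ΔlaeA, against 43.5% and 57.1% in WT.

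Whether a member was listed again in ΔlaeA is a measure the rule did not use. Of the members, 85.8% stood in the list of ΔlaeA replicate 1 (exact 95% interval 85.6 to 86.1) and 82.4% in that of ΔlaeA replicate 2 (82.1 to 82.7), a mean of 84.1% ± 2.45 (SD, n = 2). The intervals cover counting error only. CCG members were listed again in 87.5% and 84.3% of cases, the other members in 82.5% and 78.4%, and partnered sites in 91.6% and 89.2%. The CG that marks a CCG member could stand in a ΔlaeA list, so the split into CCG and other members is not independent of this measure. By CG cytosines of either WT list, 63.7% of the members were CCG, against 66.7% by any list. Both ΔlaeA lists held 74.6% of the members, exactly 1 held 18.9% and neither held 6.42%, or 4354 sites. When members were instead selected on the ΔlaeA lists and looked up in WT, 88.2% and 89.1% of 63577 sites were found. ΔlaeA replicate 2, with the lowest share, was also the library with the fewest reads per site.

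The share listed again was far higher at sites with a high WT level. Of members at 5 to 10% in WT, 67.6% were listed in ΔlaeA replicate 1 and 63.1% in ΔlaeA replicate 2, against 73.0% and 68.3% of partnered sites of that class. Of members at 20 to 30%, 99.1% and 98.3% were listed, against 99.5% and 98.8% of partnered sites. At 5 to 10% the exact intervals were 67.0 to 68.3% and 62.4 to 63.8% for members, against 72.4 to 73.7% and 67.6 to 69.0% for partnered sites. They cover counting error only and are no test between the classes, since nearby sites are not independent. The WT levels that set a class come from the lists that chose the members, and levels within a class were not matched further.

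**Figure D4:**
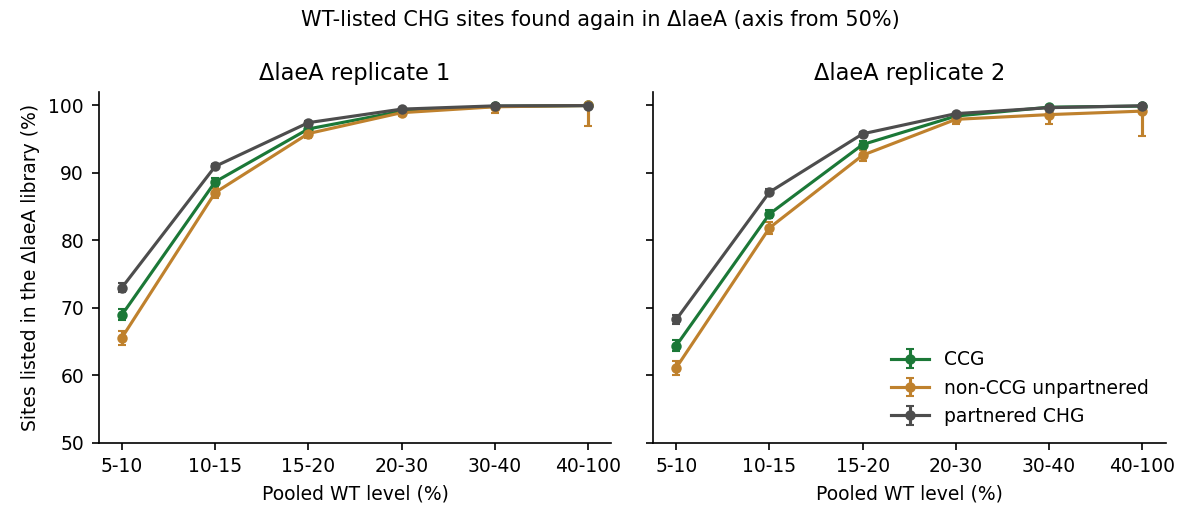
Share of CHG sites of both WT lists that were listed in a ΔlaeA library (y axis, %, starting at 50%), by pooled WT level (x axis, %), for CCG members, other members and partnered sites, with exact 95% intervals as bars. CCG members were marked by a CG in any list, ΔlaeA included. At 5 to 10% CCG members had 69.0% in ΔlaeA replicate 1 and 64.4% in ΔlaeA replicate 2, other members 65.6% and 61.1%, and partnered sites 73.0% and 68.3%, and at 20 to 30% every share was at least 97.9%.

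A partner appeared in both ΔlaeA lists for 1325 members (1.95%) and in exactly 1 for 4221 (6.22%). Those partners had to be absent from both WT lists, so a low level goes with their selection. Their median level was 7.14% at 58 reads in ΔlaeA replicate 1 and 7.32% at 51 reads in ΔlaeA replicate 2. Partners seen in exactly 1 WT list had similar medians there, 7.79% in WT replicate 1 and 7.84% in WT replicate 2. The partners of partnered sites, which were not selected in this way, had 15.6% in either ΔlaeA library. In the reverse direction, of the 63577 sites without a partner in the ΔlaeA lists, 1955 (3.08%) had a partner in both WT lists and 4639 (7.30%) in exactly 1. The difference between these shares was not tested. In all 46426 sites, or 68.4% of the members and 73.0% of the sites selected on ΔlaeA, met both rules.

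Members were next summed in 1-kb windows and tested with edgeR together with partnered CHG, CG and CHH sites. Of all 30664 rows (1 context class in 1 window), 1.83% were called lower in ΔlaeA and 0.603% higher at an adjusted p under 0.05. Of the 5119 member rows, 16 were called lower (0.313%) and 13 higher (0.254%), so that both shares were under the background. The depth of a member row, summed over its sites and the libraries, had a median of 1517, against 2046.5 for partnered CHG, 2947 for CG and 22588 for CHH. In this sum a read counts at each site it covers. The part of this depth in the low share was not tested. With a library offset, which lets each library have its own overall level, 9 were lower and 19 higher. The median difference over member rows was -0.525 percentage points, against -0.494 over all rows. Leaving out a library leaves 1 library in its strain, so counts called that way cannot show how far the calls rest on that library. In all 29 called windows both ΔlaeA libraries lay on the same side of both WT libraries. With 2 libraries against 2 a call leans on such a separation, so this adds no support. Among all 5119 member rows, both ΔlaeA libraries lay below both WT libraries in 1270 and above them in 648. A window that lost most of its listed sites in a strain is not among those tested.

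**Figure D5:**
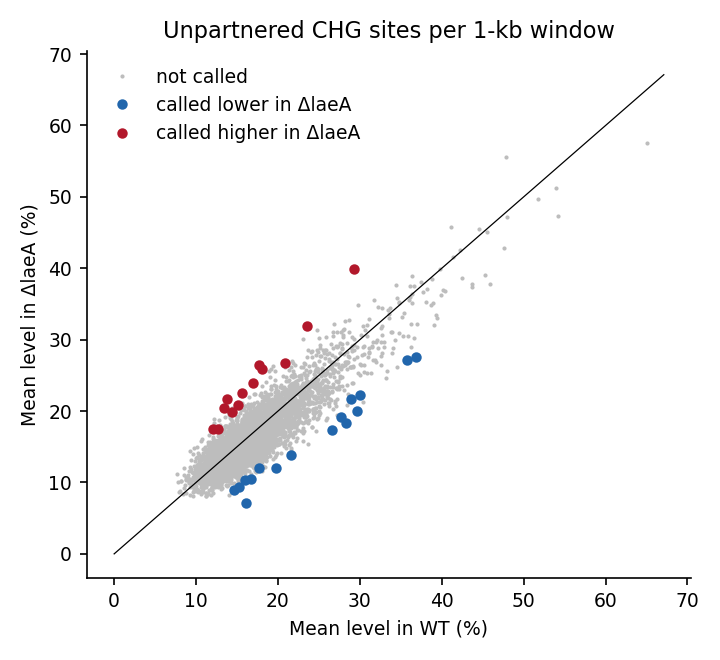
Mean level of unpartnered CHG sites in ΔlaeA (y axis, %) against WT (x axis, %), 1 point per 1-kb window with at least 5 such sites, and the line of equality. The 16 windows called lower in ΔlaeA (blue) and the 13 called higher (red) flank a cloud of 5119 tested windows whose median difference was -0.525 percentage points.

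The called windows were mostly single windows on the side of lower methylation. The clearest one by adjusted p was on chromosome 2 at 3057001 to 3058000, 15745 bp from MYCTH_65542, where 6 members, 3 of them CCG, had 7.09% and 7.03% in ΔlaeA, against 15.5% and 16.8% in WT (-9.09 percentage points, adjusted p = 4.7e-05). Its depth was 63.5 and 61.7 reads per site in ΔlaeA, against 66.7 and 67.5 in WT, so it was no thinly read window. Its 9 CHH sites fell by 5.45 points (adjusted p = 0.0069), and it held too few CG or partnered CHG sites to test. On chromosome 1 at 7809001 to 7810000, 1211 bp from MYCTH_89935, 11 members had 28.1% and 27.1% in ΔlaeA, against 36.8% and 36.9% in WT (-9.24 points, adjusted p = 0.011). There the partnered CHG, CG and CHH rows were also called lower, by -9.82, -5.15 and -6.25 points.

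The other named falls rested on 5 or 6 members each. On chromosome 6 at 3637001 to 3638000, 1000 bp from MYCTH_2311026, the members had 17.6% and 18.9% in ΔlaeA, against 28.6% and 28.1% in WT (-10.1 points, adjusted p = 0.043, and 0.065 with the library offset). On the same chromosome at 2679001 to 2680000, 1811 bp from MYCTH_109790, they had 20.7% and 19.4% in ΔlaeA, against 29.5% and 29.6% in WT (-9.53 points, adjusted p = 0.030). On chromosome 1 at 2953001 to 2954000, 1786 bp from MYCTH_2295591, they had 16.0% and 18.6% in ΔlaeA, against 27.2% and 26.1% in WT (-9.34 points, adjusted p = 0.024). The CHH row was called lower in each of these windows as well, while the partnered CHG row was not called in the first and last and was not tested in the second.

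Of the 13 windows called higher, 11 stood on chromosome 1 between 902001 and 952000. In that stretch of 50 kb, drawn around the called windows, 42 of the 44 tested member rows had a higher mean in ΔlaeA, and the 431 members in them had 20.2% and 19.8% in ΔlaeA, against 16.0% and 16.5% in WT. For reference, 59.7% of all tested member rows and 63.7% of the rows of all classes had a lower mean in ΔlaeA. The window at 950001 to 951000, 5746 bp from MYCTH_2294362, held 12 members with 26.5% in both ΔlaeA libraries, against 16.6% and 18.9% in WT (8.75 points, adjusted p = 0.00063). The window beside it, at 951001 to 952000, had 36.5% and 43.2% in ΔlaeA, against 26.6% and 32.1% in WT at 5 members (10.6 points, adjusted p = 0.049). In the first of these the partnered CHG, CG and CHH rows were called higher too, by 7.01, 7.25 and 7.45 points. In the second the CG and CHH rows were called higher, by 11.8 and 11.3 points, and the partnered CHG row was not called (adjusted p = 0.075).

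Further named rises in this stretch were at 903001 to 904000, with 33.1% and 30.8% in ΔlaeA, against 22.2% and 24.8% in WT (8.45 points, adjusted p = 0.048), and at 945001 to 946000, with 22.9% and 20.4% in ΔlaeA, against 14.2% and 13.5% in WT (7.84 points, adjusted p = 0.020). The CHH row was called higher in both windows and the CG row at 945001 only, while the partnered CHG row was called in neither. The last named rise lay elsewhere on chromosome 1, at 10391001 to 10392000 and 519 bp from MYCTH_109510, with 29.0% and 22.7% in ΔlaeA, against 19.5% and 16.5% in WT (7.83 points, adjusted p = 0.033). In that window no other class was called, with adjusted p between 0.47 and 0.81. Over all 29 called windows the CHH row was called in 21 and had its mean on the same side in 28. The partnered CHG row, tested in 27, was called in 9 and lay on the same side in 26. The CG row, tested in 28, was called in 12 and lay on the same side in 27. Over all tested windows, 4.93% of CHH rows, 1.57% of partnered CHG rows and 1.22% of CG rows were called. The 29 windows were chosen by the member call, so these tallies are a description.

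Single sites in called windows were not tested, and their reads are given as a description. The deepest member in a window called lower, on the plus strand of chromosome 3 at 2161571, had 7 of 73 and 5 of 88 reads methylated in ΔlaeA, against 14 of 82 and 12 of 90 in WT. The next, on chromosome 6 at 3454704, had 4 of 80 and 7 of 65 in ΔlaeA, against 15 of 90 and 6 of 80 in WT, and the last, on chromosome 4 at 1465048, had 6 of 96 and 3 of 57, against 6 of 72 and 8 of 85. The strains overlapped in level at the site of chromosome 6 and not at the others. In windows called higher, the site of chromosome 1 at 946326 had 8 of 81 and 4 of 54 in ΔlaeA, against 5 of 81 and 9 of 90 in WT. The site at 946296 had 10 of 84 and 14 of 55, against 9 of 77 and 9 of 89, and the site at 10391405 had 22 of 78 and 14 of 61, against 13 of 80 and 15 of 82. Here the strains overlapped at the first site only.

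Few members lay in annotated genes. Of the members 2199, or 3.24% (exact 95% interval 3.11 to 3.38), stood within a gene, against 3.21% of partnered sites, and 5.73% stood within 1 kb of a gene, against 6.80%. A member was present in 166 of the 9292 genes, and 46 genes held at least 10. The gene with most members was MYCTH_2062106 (chromosome 3, 3824348 to 3842015), with 180. At its 134 members listed in all libraries the level was 15.6% and 15.8% in ΔlaeA, against 15.3% and 15.5% in WT. MYCTH_2123212 (chromosome 1, 5038711 to 5048680) held 117, of which 101 were CCG, with 21.5% and 21.0% in ΔlaeA, against 24.4% and 24.2% in WT at 92 sites. The strains did not overlap in either gene, in opposite directions, and no test was run on genes. Such a separation was frequent among the 5119 member windows, with ΔlaeA below WT in 1270 and above in 648. Its share over all genes was not counted.

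The next genes were MYCTH_117478 (chromosome 7, 1398996 to 1418472) with 107 members, and MYCTH_2128775 (chromosome 5, 1102468 to 1110571) and MYCTH_2130249 (chromosome 6, 3326750 to 3338880) with 85 each. Levels were 15.1% and 15.6% in ΔlaeA, against 17.0% and 15.7% in WT, in MYCTH_117478. They were 17.8% and 18.1%, against 19.4% and 18.8%, in MYCTH_2128775, and 14.5% and 15.7%, against 16.7% and 15.5%, in MYCTH_2130249. In the last of these the strains overlapped, and in the other two ΔlaeA was below WT. The tables used give no product for these genes.

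A list of 11 genes that the study followed held no member within a gene, where 166 of all 9292 genes held one. The list was laeA, laeB, the regulator genes grf-3, grf-2, grf-1 and cre-1, the gluconeogenesis genes pck (phosphoenolpyruvate carboxykinase) and fbp (fructose bisphosphatase), and the (hemi)cellulase activator genes clr-1, clr-2 and xlnR. Of these genes with 1 kb on each side, only clr-1 had a member nearby, and that was 1 site. Around laeA no CHG site stood in both WT lists, although 31 stood in at least 1 of the 4 lists.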

How the data were processed

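For each of the 4 libraries the authors deposited a list of cytosines with methylated and unmethylated read counts. The deposited lists also give, per cytosine, the methylation level as a fraction of all reads and the raw and adjusted p-value of the call. Levels were at least 0.05, depths at least 5 reads and adjusted p-values at most 0.01. FastQC 0.11.5 and Bismark 0.16.3 are named in the submitters' processing notes, and the test behind the calls is not given in the sources used here. A deposited table of differentially methylated regions holds the authors' own comparison and was not used. No column of per-sample values was unmatched (0). Depth is the number of reads at a listed cytosine. Its sum over the listed cytosines was between 88818528 and 120404391 per library, where a read counts at each listed cytosine it covers.

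Members were found by position, and coordinates and the RefSeq gene table are on ASM22609v1. No sequence was read. Levels are methylated over all reads summed over sites, compared by exact two-sided permutation. Member, partnered CHG, CG and CHH counts were summed per 1-kb window over sites listed in all 4 libraries, with at least 5 sites and 10 methylated reads per row. The 30664 rows were fitted with edgeR 4.0.16 in R 4.3.3 (quasi-likelihood F-test, Benjamini-Hochberg adjustment over all rows, 0.05), after a test on simulated data. In that test 200 rows of any class were changed in ΔlaeA. Of the rows changed 0.5-fold 50% were recovered, and of those changed 1.5-fold 16%, with 4 false calls. Many changes of that size can thus go uncalled. The fit had no term for the replicate number. Intervals are exact Clopper-Pearson on counts of sites. They cover counting error only, and nearby sites are not independent. Reads carry no molecular identifiers.

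Named windows were the 5 called falls and 5 called rises with the largest difference and both libraries of a strain on one side. Named sites were the 5 with the highest mean WT level, and the 3 with most reads in windows called in each direction. Named genes were the 5 with most members and a list of 11. Members and lists were chosen with earlier results of these data known. Alternatives were other read and site minimums, mean site levels, other member rules, a library offset, a replicate block and leaving out each library.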

Additional observations from a re-analysis of the deposited data

How the results depend on the processing

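The lower level of members in ΔlaeA kept its direction under every alternative run, between -0.577 and -0.307 percentage points, and the exact p stayed at 0.333 wherever it could be computed. Leaving out each library gave -0.543 to -0.443 points. The gap between members and partnered sites, compared between strains, was 0.0834 points, and changed sign for CCG members only (-0.000729 points, an alternative chosen after seeing the data) and within the range of -0.0183 to 0.185 points when each library was left out. Without the members beside a CG of any list, ΔlaeA included, it was 0.270 points, the strains then not overlapping (exact p = 0.333, the smallest possible). The number of member windows called was 29 and became 9 of 882 with at least 10 sites per row, 1 of 398 without CCG members and 13 of 2961 with CCG members only, settings that test fewer rows, and 9 to 19 when each library was left out. Selection on the ΔlaeA lists gave 38 called windows, with 29 lower and 9 higher; the cause of this split was not tested. Of the 29 called windows, 22 were also called with the library offset. With the replicate block 39 were called, the 29 among them. The deviations of replicate 1 in both strains correlated at r = 0.000709 over rows. A shift common to all rows would not show in this value, so it does not settle whether the replicate numbers pair the samples. The share listed again was 88.6% for members selected on ΔlaeA, and the share of CCG members was 52.1% with the CG in both WT lists; the cause of the first was not tested. With at least 20 reads in both WT lists the share listed again was 84.1%, as without that minimum. The part of the ΔlaeA libraries' own depth in it was not tested.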
